A study of Mus musculus with 24 samples.

Results

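The genes described here are 10 known targets of the glucocorticoid receptor, namely Fkbp5, Tsc22d3, Ddit4, Sgk1, Errfi1, Arrdc2, Zbtb16, Klf9, Klf15 and Cebpd. They were measured by bulk RNA sequencing of 24 bone substitute constructs taken from mice. They are 10 of the 51138 genes in the count table, and all 10 passed the filter on low counts, which kept 30564 genes. The genes were selected on these data, because Fkbp5 and others of them were higher in mice given diphtheria toxin. Their levels in toxin-treated against untreated mice are therefore given as a description with no test. Tests of these genes are given for the comparisons among untreated groups, which the choice did not use. They are also given for contrasts between toxin-treated groups, which are not fully independent of the choice. Adjusted p-values of other genes in the toxin comparisons belong to lists drawn up with earlier results known.

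Each construct consisted of 40 mg of the ceramic BCP (biphasic calcium phosphate, used to replace bone) and lay in a pocket under the back skin of a mouse. The recipients were all Foxp3DTR/eGFP mice of both sexes, 8 to 9 weeks old, in which the Foxp3 gene also drives a diphtheria toxin receptor and a green fluorescent protein. The toxin therefore acts on cells that express Foxp3, the defining factor of regulatory T cells (Treg). Constructs were collected at week 2, with 4 in each of 6 groups. A mouse carried 2 constructs of 1 kind, and by the study's account the 4 libraries of a group came from separate mice. The untreated groups were BCP without cells, BCP+MSC with 800000 bone marrow stromal cells (MSC) per construct, BCP+MSC+RvE1 with MSC that had been exposed to resolvin E1, a lipid mediator, at 10 nM, and BCP+MSC+Treg with MSC cocultured with Treg. In the toxin groups, (dep)BCP+MSC without and (dep)BCP+MSC+RvE1inj with an additional injection, the constructs were BCP+MSC and the mice received 50 µg/kg of diphtheria toxin into the abdomen, the last dose on day 10. The additional injection was 1 µM RvE1, given daily at the implant. Vehicle injections in the other mice, the time of day of collection and the batch of each library were not given in the sources used here, so that their part cannot be told apart from the toxin.

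RNA came from whole constructs with seeded and host cells, and in such bulk samples fewer cells of a type and less RNA per cell cannot be told apart. Library totals ran from 8482701 to 144417743 counts. Levels are CPM, read counts relative to library size, after TMM scaling, which sets libraries of different depth and composition on 1 scale. The floor of 3 counts lay between 0.0208 and 0.354 CPM, and floors cover counting error only. Foxp3 itself did not separate the groups, with 0.356 to 2.14 CPM in the 16 untreated and 0.299 to 1.70 CPM in the 8 toxin-treated constructs, so that it does not check the depletion and the toxin groups are named by their labels. By the study's account, flow cytometry of lymph nodes and spleen showed the loss of Treg with toxin. Markers of connective tissue and macrophages were present in all constructs, as were those of skeletal muscle, which lies next to the implant. The library of BCP+MSC replicate 2 stood apart with a mean log2 CPM of 3.45 over 24 muscle genes, against 8.72 to 9.30 in the others of its group. Xist was above the Y-linked genes in 1 of 4 BCP, 3 of 4 BCP+MSC, 0 of 4 BCP+MSC+RvE1 and 1 of 4 BCP+MSC+Treg constructs. It was so in 2 of 4 (dep)BCP+MSC and 0 of 4 (dep)BCP+MSC+RvE1inj constructs.

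Glucocorticoids are steroid hormones of the adrenal cortex that are released with the daily rhythm and under stress, illness and fasting. They bind the glucocorticoid receptor, encoded by Nr3c1, which is held in the cytoplasm by chaperones, moves to the nucleus with its ligand and binds DNA at glucocorticoid response elements. There it raises the transcription of target genes, among them genes that dampen inflammation, slow growth and release amino acids and glucose from muscle. Many of these genes are also controlled by other signals, so that their level is not a measure of the hormone itself.

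The response element is an inverted pair of equal arms, spelled out as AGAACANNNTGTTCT, and it was searched on both strands in promoter windows of RefSeq on GRCm38.p6. A window runs from 250 bases before to 50 bases after an annotated start. Of the 10 genes 8 had a window, and Zbtb16 and Cebpd had none. The complete element stood in 3 of 27025 genes (0.0111%), and 1 of these was Sgk1. Its shorter core, ACANNNTGT, which lies within the complete element, was found in 1 of the 8 genes, again Sgk1, against 7.9% of all genes. A single arm, AGAACA or its reverse complement TGTTCT, stood in 2 of the 8, Sgk1 and Tsc22d3, against 21.3% of all genes. These are letters in a window and not sites at which the receptor was measured, and response elements also lie outside such windows.

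The window of 1 Sgk1 start is shown because it holds the complete element, the Tsc22d3 window because it holds a single arm, and the Fkbp5 window because Fkbp5 had the largest difference with toxin and no match. Capitals mark every match of the core or an arm. The windows are Sgk1 at chr10:21993640-21993939 on the plus strand, Tsc22d3 at chrX:140600473-140600772 and Fkbp5 at chr17:28486100-28486399, both on the minus strand, each printed 5′ to 3′ on the strand of its gene.
Sgk1: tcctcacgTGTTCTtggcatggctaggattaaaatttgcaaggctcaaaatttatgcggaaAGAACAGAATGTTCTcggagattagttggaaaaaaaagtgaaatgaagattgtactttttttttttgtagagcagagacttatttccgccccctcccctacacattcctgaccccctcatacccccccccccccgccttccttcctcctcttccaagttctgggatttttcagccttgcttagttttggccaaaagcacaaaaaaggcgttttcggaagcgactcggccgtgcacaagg
Tsc22d3: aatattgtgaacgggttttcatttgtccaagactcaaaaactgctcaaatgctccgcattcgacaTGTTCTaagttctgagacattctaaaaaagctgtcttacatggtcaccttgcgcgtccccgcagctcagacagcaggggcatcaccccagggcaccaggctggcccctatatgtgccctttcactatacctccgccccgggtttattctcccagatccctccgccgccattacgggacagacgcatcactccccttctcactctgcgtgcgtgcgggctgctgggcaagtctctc
Fkbp5: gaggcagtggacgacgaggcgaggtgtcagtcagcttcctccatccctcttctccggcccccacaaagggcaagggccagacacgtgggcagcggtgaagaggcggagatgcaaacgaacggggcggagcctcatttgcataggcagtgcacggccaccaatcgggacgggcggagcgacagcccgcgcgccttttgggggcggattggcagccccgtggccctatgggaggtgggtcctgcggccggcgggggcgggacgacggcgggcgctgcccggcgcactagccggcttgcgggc
In the Sgk1 window the complete element lay from 189 to 175 bases before the start, and the Tsc22d3 arm from 185 to 180 bases before it.

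**Figure D1:**
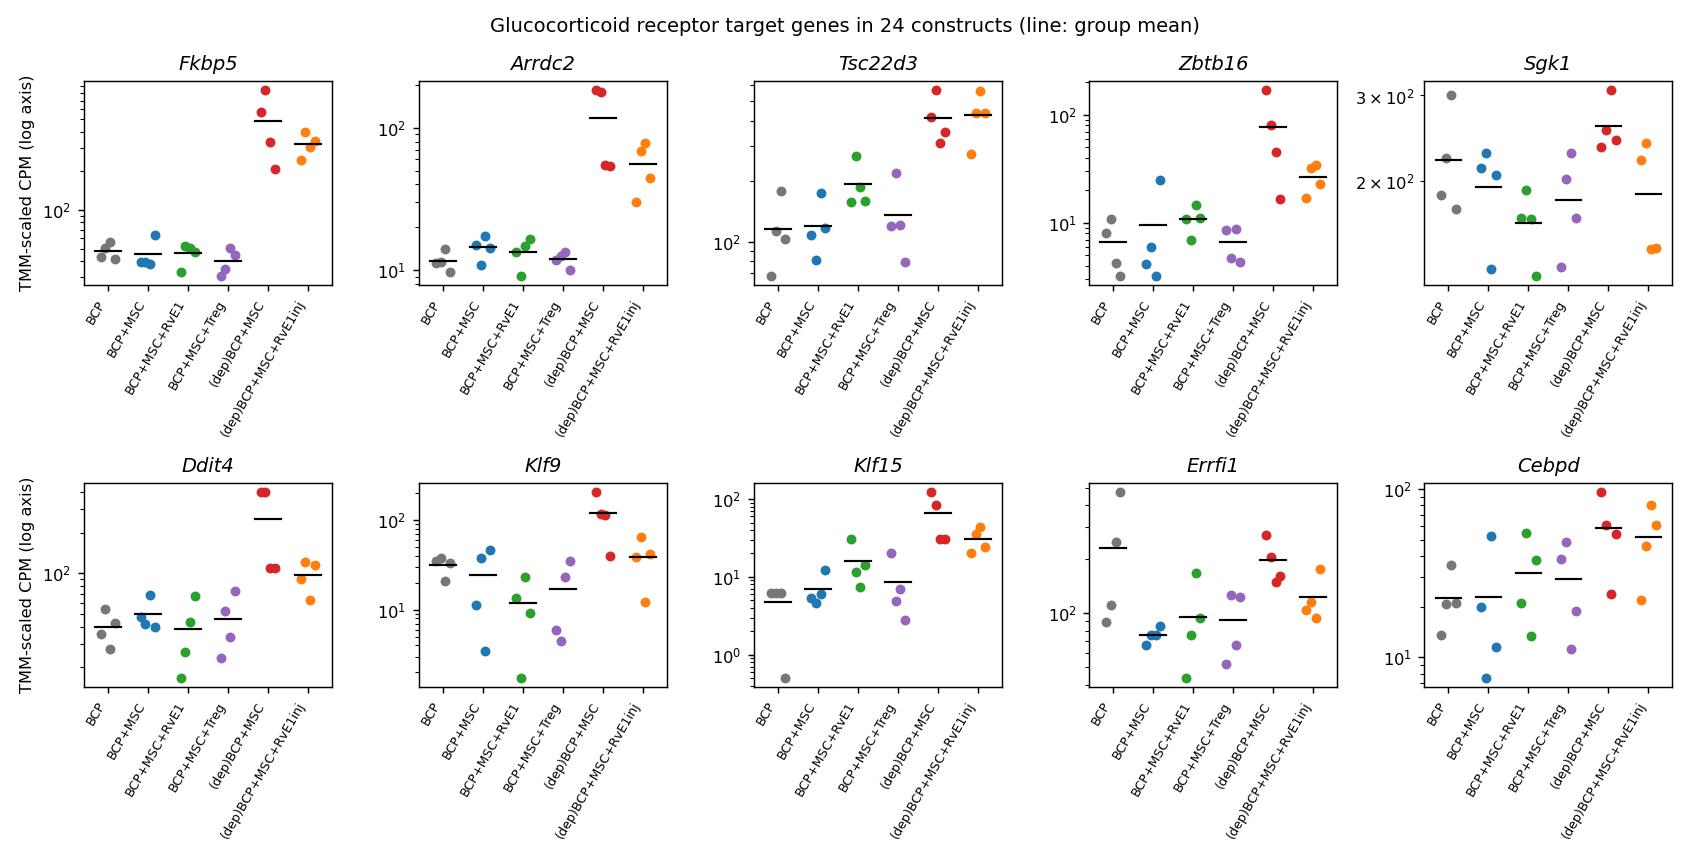
Level of each of the 10 genes in TMM-scaled CPM on a log axis, with 1 point per construct (4 per group) and a line at the group mean. For Fkbp5, Arrdc2 and Tsc22d3 all 8 toxin-treated constructs lie above all 16 untreated ones, whereas Sgk1 and Errfi1 overlap widely.

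Fkbp5 (ENSMUSG00000024222.16, GRCm38 chr17:28399095-28517524, minus strand) encodes a chaperone that lowers the receptor's affinity for its ligand and is a feedback regulator of it. The 16 untreated constructs held 30.7 to 64.0 CPM of it, with a median of 43.8 CPM. The (dep)BCP+MSC constructs held 569, 840.1, 332 and 205 CPM (libraries 1, 2, 4 and 5, as numbered in the table), and in (dep)BCP+MSC+RvE1inj they held 242, 396, 309 and 342 CPM. All toxin-treated constructs were thus above all untreated ones, and the lowest of them was a (dep)BCP+MSC construct. The mean was 487 ± 280 CPM in (dep)BCP+MSC, 322 ± 64.7 CPM in (dep)BCP+MSC+RvE1inj and, for comparison, 45.3 ± 12.5 CPM (SD) over the 4 BCP+MSC constructs. In order of the means the 4 untreated groups came first, from 40.2 CPM in BCP+MSC+Treg to 47.9 CPM in BCP, and neighbours among them overlapped, as did the 2 toxin groups with each other.

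Tsc22d3 (ENSMUSG00000031431.13, chrX:140539528-140600659, minus strand) encodes GILZ, a leucine zipper protein that restrains inflammatory transcription factors in immune cells. It lay between 67.5 and 267.5 CPM in the untreated constructs, with a median of 121 CPM. The values were 419.7, 567, 309.8 and 350.3 CPM in (dep)BCP+MSC and 272, 439, 565 and 435 CPM in (dep)BCP+MSC+RvE1inj. Again the toxin-treated constructs lay above all others, but only just, since (dep)BCP+MSC+RvE1inj replicate 1 at 272.4 CPM was next to BCP+MSC+RvE1 replicate 2 at 267.5 CPM. Tsc22d3 was the 1 gene of the 10 whose mean was not lower with RvE1 injection, at 428 ± 120 CPM against 412 ± 113 CPM without it (SD, n = 4 each). Per kilobase of exon it was the most abundant of the 10 in toxin-treated constructs, with a median of 98.4 CPM per kb, ahead of Ddit4 at 64.0 and Fkbp5 at 53.0 CPM per kb.

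Arrdc2 (ENSMUSG00000002910.11, chr8:70835129-70839720, minus strand) encodes a protein with arrestin-like domains. Untreated constructs had 9.09 to 17.5 CPM, with a median of 12.9 CPM. In (dep)BCP+MSC it was at 183, 177, 54.3 and 53.9 CPM, and in (dep)BCP+MSC+RvE1inj at 30.1, 68.2, 78.1 and 44.4 CPM. The toxin-treated constructs did not overlap with the untreated ones, and within (dep)BCP+MSC libraries 1 and 2 were far above libraries 4 and 5. Fkbp5, Tsc22d3 and Arrdc2 were the 3 of the 10 genes without overlap, where 0.386% of all genes tested had all 8 toxin-treated above all 16 untreated constructs. Since the genes were chosen for this difference, nothing follows from that share.

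Ddit4 (ENSMUSG00000020108.4, chr10:59949669-59951834, minus strand), an inhibitor of the growth kinase mTORC1, showed the same split. It was at 399.6, 401 and 109.7, 109.9 CPM in libraries 1, 2 and 4, 5 of (dep)BCP+MSC, and at 90.1, 121 and 63.1, 115 CPM in (dep)BCP+MSC+RvE1inj. The untreated constructs had 16.8 to 74.5 CPM, and 3 of these were above the lowest toxin-treated one. Sgk1 (ENSMUSG00000019970.15, chr10:21882184-21999903, plus strand), a kinase that regulates ion channels and cell survival, differed least. It was at 235, 255, 307 and 243.5 CPM in (dep)BCP+MSC, at 221, 239.9, 145 and 146 CPM in (dep)BCP+MSC+RvE1inj and between 128 and 300.4 CPM in untreated constructs. In Sgk1, the gene with the complete response element in its window, 1 toxin-treated construct was above all untreated ones. Errfi1 (ENSMUSG00000028967.10, chr4:150853919-150868892, plus strand), an inhibitor of the EGF receptor, had 94.6 to 272 CPM in toxin-treated and 43.7 to 472.5 CPM in untreated constructs. Its highest values, 472.5 and 249 CPM, came from BCP replicates 4 and 3.

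The other 4 genes encode transcription factors. Klf15 (ENSMUSG00000030087.11, chr6:90462576-90475238, plus strand) acts in the amino acid metabolism of muscle and was at 123, 84.4, 30.6 and 30.3 CPM in (dep)BCP+MSC and at 20.5, 36.0, 43.65 and 23.9 CPM in (dep)BCP+MSC+RvE1inj. Untreated constructs had 0.504 to 30.45 CPM of Klf15, and 1 of them, BCP+MSC+RvE1 replicate 1, was above the lowest toxin-treated construct. Zbtb16 (ENSMUSG00000066687.5, chr9:48654297-48836222, minus strand), also called PLZF, was at 169, 79.7, 45.1 and 16.65 CPM in (dep)BCP+MSC and at 17.1 to 34.55 CPM after RvE1 injection. Its untreated constructs had 3.21 to 24.65 CPM, with the highest value in BCP+MSC replicate 4. So Klf15 and Zbtb16 separated the toxin-treated constructs from all untreated ones but 1 each.

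Klf9 (ENSMUSG00000033863.1, chr19:23141226-23166911, plus strand), which links the hormone to cell growth and the clock, and Cebpd (ENSMUSG00000071637.5, chr16:15887286-15891031, plus strand), a factor of the acute phase and of fat cell differentiation, overlapped more. Klf9 was at 206, 118, 114 and 40.3 CPM in (dep)BCP+MSC and at 38.9, 64.1, 12.2 and 42.0 CPM in (dep)BCP+MSC+RvE1inj, and its untreated range was wide, from 1.75 to 46.2 CPM. Cebpd was at 96.0, 61.4, 23.7 and 54.3 CPM and at 21.8, 45.9, 80.0 and 60.8 CPM in the same groups, against 7.56 to 54.8 CPM in untreated constructs. For each of these genes 4 of 8 toxin-treated constructs were above all untreated ones. Exons of Spidr overlap Cebpd on the opposite strand, and reads were counted without regard to strand.

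Against BCP+MSC, the group with the same construct, the mean of all 10 genes was higher in (dep)BCP+MSC, and that of 9 was higher in (dep)BCP+MSC+RvE1inj. The log2 fold changes from the edgeR model ran from 0.42 for Sgk1 to 3.43 for Fkbp5 in (dep)BCP+MSC, with a median of 2.32, where the median of all genes tested was -0.04. Ratios of the mean CPM were 10.8 for Fkbp5, 9.54 for Klf15, 8.15 for Zbtb16 and 8.11 for Arrdc2. In (dep)BCP+MSC+RvE1inj the log2 fold changes ran from -0.05 for Sgk1 to 2.83 for Fkbp5, with a median of 1.34 and again -0.04 for all genes. Both comparisons share the BCP+MSC constructs, so their values are not independent. Without BCP+MSC replicate 4, which had the highest untreated level of Zbtb16, the log2 fold change of that gene was 4.11 in place of 3.02 in (dep)BCP+MSC and 2.58 in place of 1.49 in (dep)BCP+MSC+RvE1inj. Without (dep)BCP+MSC library 1 it was 2.29 in that group.

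**Figure D2:**
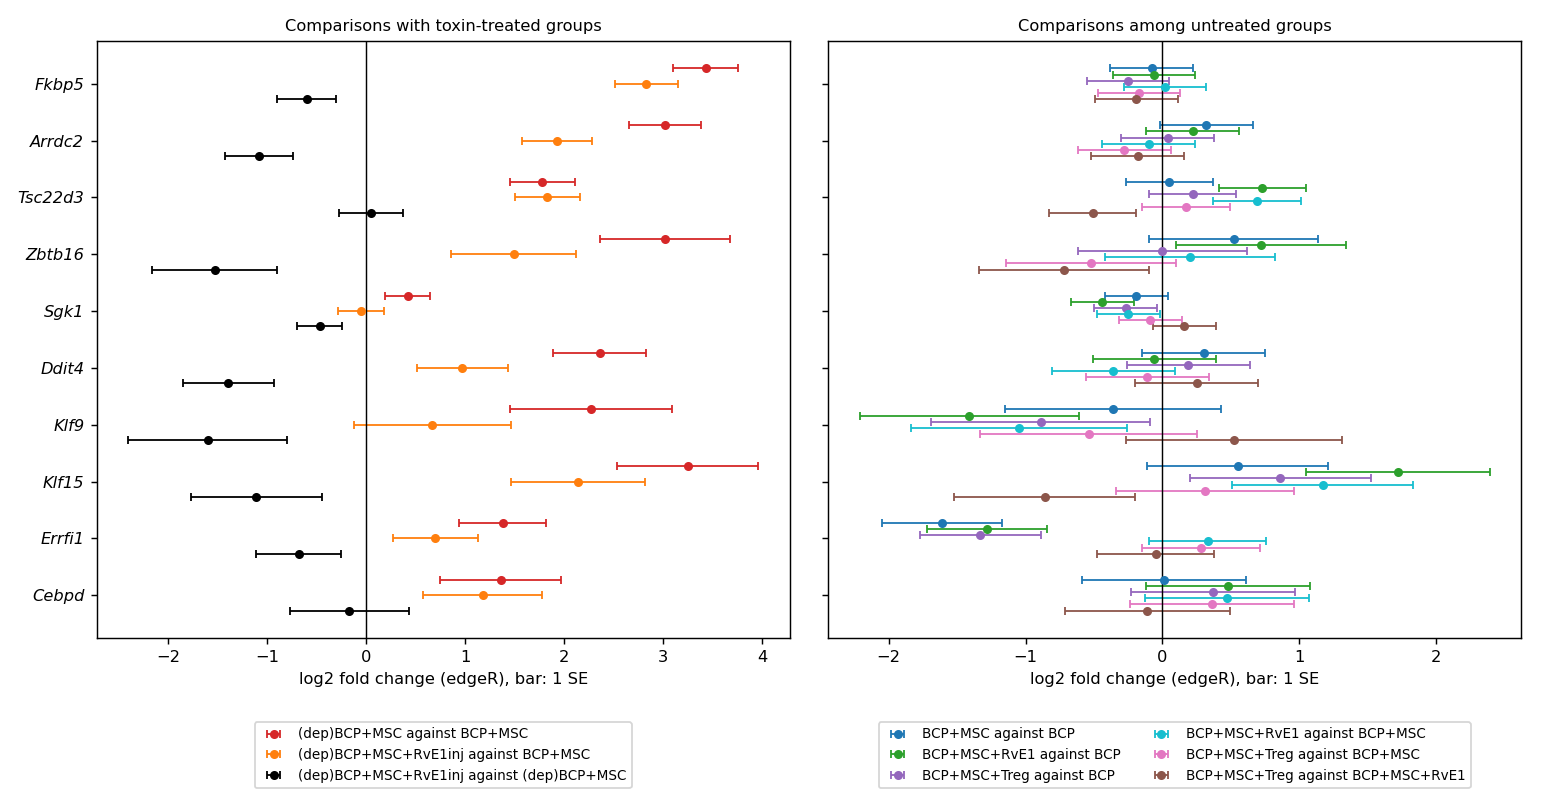
edgeR log2 fold changes of the 10 genes with 1 standard error, on the left for comparisons with toxin-treated groups and on the right for the 6 comparisons among untreated groups, 4 constructs per group. On the left 10 of 10 red and 9 of 10 orange points lie above 0 and 9 of 10 black points below it, while on the right most genes lie on either side of 0.

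The constructs of (dep)BCP+MSC differed among themselves. The median of the 10 genes, as the log2 difference from the BCP+MSC mean, was 3.36 and 2.96 in libraries 1 and 2 and 1.68 and 1.46 in libraries 4 and 5. In 9 of the 10 genes, all but Sgk1, both of the first libraries were above both of the others. The 4 constructs of (dep)BCP+MSC+RvE1inj had medians of 1.16 to 2.25, which lie around those of libraries 4 and 5. In the 16 untreated constructs the medians lay between -0.40 and 0.40. Markers of other cells varied over the same libraries. Library 1 had the highest skin and hair markers of all constructs (mean log2 CPM 2.42, against -1.27 to -0.40 in the other 3), whereas library 2, at -1.05, did not. T cell markers were at 1.40 and 1.68 in libraries 1 and 2 and at 2.63 and 3.12 in libraries 4 and 5. The part of these cells in the levels of the 10 genes was not tested.

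To see whether RvE1 injection changed the genes in toxin-treated mice, (dep)BCP+MSC+RvE1inj was compared with (dep)BCP+MSC. Constructs of both groups entered the choice of the genes, so this comparison is not fully independent of it. A choice for high levels in (dep)BCP+MSC would favour estimates below 0 here, so their direction is no independent evidence. The mean of 9 of the 10 genes was lower with injection and the median log2 fold change was -0.88, against 0.00 for all genes tested. Markers of other cells differed between these groups too, with 5 of 5 B cell markers (median log2 fold change 1.98) and 11 of 12 T cell markers (0.80) higher and 15 of 18 skin and hair markers (-0.94) lower by their estimates, of which 0 passed the adjusted threshold. Their part in the difference of the 10 genes was not tested beyond the fit with skin markers as a covariate, where the median was -0.78. At an unadjusted p-value under 0.05, 3 of the 10 passed and all 3 were lower, where 7.42% of all genes passed. Arrdc2 differed by -1.08 ± 0.34 (unadjusted p = 0.00376), Ddit4 by -1.39 ± 0.46 (unadjusted p = 0.00627) and Zbtb16 by -1.53 ± 0.63 (unadjusted p = 0.0242) on the log2 scale (edgeR, ± standard error). After adjustment over all genes 0 of the 10 passed, with the lowest adjusted p at 0.668 from edgeR's quasi-likelihood test. A single alternative changed this call, a fit by replicate number that held only libraries 1 and 2 of (dep)BCP+MSC, where 3 of the 10 passed. In fact 0 genes (0.0%) passed in the whole table, 2269 did so unadjusted, and DESeq2 called 8 genes at an adjusted p under 0.05 and 2111 unadjusted.

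The groups overlapped for every one of the 10 genes. Of the 40 values in injected constructs, 24 lay inside the range of (dep)BCP+MSC, 16 below it and 0 above it. In exact two-sided permutation tests of log2 CPM, whose smallest possible p-value with 4 against 4 is 0.0286, the lowest was 0.0571 for Sgk1, and Arrdc2 had 0.229, Ddit4 0.171 and Zbtb16 0.2. The number of genes past the unadjusted threshold was 5 without (dep)BCP+MSC library 5 and 6 without (dep)BCP+MSC+RvE1inj replicate 2. Arrdc2 and Ddit4 stayed past it with each of the 8 constructs left out, and Zbtb16 in 5 of 8 fits.

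RvE1 was also given by priming the MSC, in mice without toxin. The difference between the effect of injection and that of priming was tested in the same model. It includes the difference of (dep)BCP+MSC from BCP+MSC with a minus sign, and the genes were chosen for a rise with toxin. Estimates below 0 were thus favoured by the choice, so their direction and p-values are no independent evidence. All 10 estimates were below 0, with a median of -0.82 on the log2 scale and 0.06 for all genes. The unadjusted p-value was 0.0235 for Klf15 (-2.29, standard error 0.93) and 0.0485 for Arrdc2 (-0.99, standard error 0.48), and the adjusted p was 0.9999 for both in edgeR. These were 2 of the 10, where 4.45% of all genes passed unadjusted and 0.0% after adjustment. Arrdc2 passed in 7 of the 24 fits that left out 1 construct and Klf15 in 22 of 24, the exceptions being BCP+MSC+RvE1 replicate 1 (-1.76) and (dep)BCP+MSC library 1 (-1.83). With muscle markers as a covariate neither passed (-1.67 for Klf15 and -0.69 for Arrdc2), nor with skin markers (-1.85 and -0.94). In priming, Klf15 was at 15.9 ± 10.1 CPM against 7.04 ± 3.48 CPM in BCP+MSC, a log2 fold change of 1.17. By injection it was at 31.0 ± 10.7 against 67.2 ± 45.2 CPM, a log2 fold change of -1.11 (SD, n = 4 each).

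Among the untreated groups, 0 of the 10 genes passed the threshold of 0.05 after adjustment in any of the 6 comparisons, and neither did any other gene, so that the background was 0.0% in each. Between 725 and 4755 genes passed unadjusted, and DESeq2 called 0 to 99 genes at the adjusted threshold. At an unadjusted p-value the count was 1 of 10 for BCP+MSC against BCP (background 5.06%), 3 of 10 for BCP+MSC+RvE1 against BCP (15.6%) and 1 of 10 for BCP+MSC+Treg against BCP (7.6%). It was 1 of 10 for BCP+MSC+RvE1 against BCP+MSC (3.26%), 0 of 10 for BCP+MSC+Treg against BCP+MSC (2.72%) and 0 of 10 for BCP+MSC+Treg against BCP+MSC+RvE1 (2.37%). Fkbp5 lay within a log2 fold change of -0.25 to 0.02 in these 6, and its unadjusted p-value was never under 0.05.

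Errfi1 was lower than in BCP in all 3 groups with MSC at an unadjusted p, and in 0 of 3 after adjustment. It was at 89.1, 111, 249 and 472.5 CPM in BCP and at 66.9, 75.5, 75.7 and 84.95 CPM in BCP+MSC, so that every BCP construct was above every BCP+MSC construct (p = 0.0286 by exact permutation, the lowest that 4 against 4 can give). In edgeR the gene differed by -1.61 ± 0.44 on the log2 scale (standard error; unadjusted p = 0.00134, adjusted p = 0.888). The other differences from BCP, where the groups overlapped, were -1.28 in BCP+MSC+RvE1 (unadjusted p = 0.0076) and -1.33 in BCP+MSC+Treg (unadjusted p = 0.0058), with adjusted p-values of 0.3 and 0.614. These comparisons share the BCP constructs, and the values rested on 1 of these. Without BCP replicate 4 the log2 fold changes were -0.66 and -0.71 and no longer passed. For BCP+MSC it was -0.99 without that construct, and Errfi1 passed with each of the 8 constructs left out.

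Tsc22d3 and Klf15 had their highest untreated levels in BCP+MSC+RvE1. Tsc22d3 was at 158, 267.5, 188 and 160.2 CPM there, against 67.5, 113, 180 and 104 CPM in BCP and 108, 80.9, 174 and 117 CPM in BCP+MSC. The log2 fold change was 0.73 against BCP (unadjusted p = 0.0303, adjusted p = 0.303) and 0.69 against BCP+MSC (unadjusted p = 0.0412, adjusted p = 0.924). Klf15 was at 30.45, 11.7, 7.30 and 14.1 CPM in BCP+MSC+RvE1 and at 6.24, 6.14, 6.18 and 0.504 CPM in BCP, without overlap (exact permutation test, p = 0.0286). Its log2 fold change was 1.72 with a standard error of 0.67 (unadjusted p = 0.0189, adjusted p = 0.3). Skeletal muscle markers were also highest in BCP+MSC+RvE1, at a mean log2 CPM of 8.69 to 9.91, against 6.21 to 9.01 in BCP. Fat cell markers were highest there too, at 7.34 to 8.86 against 2.65 to 7.43 in BCP, and their part was not tested. With the muscle markers as a covariate, the fold changes against BCP were 0.45 for Tsc22d3 and 1.35 for Klf15 on the log2 scale, and neither passed the unadjusted threshold. Tsc22d3 also missed it without BCP replicate 1 (0.57) or 4 (0.68) or BCP+MSC+RvE1 replicate 2 (0.54), and Klf15 without BCP+MSC+RvE1 replicate 1 (1.19). Against BCP+MSC, Tsc22d3 passed it in 3 of the 8 fits that left out 1 construct. With muscle or with skin markers as a covariate, 0 of the 10 genes passed it there.

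Over the 16 untreated constructs, the relation of each gene to the muscle markers and of each other gene to Fkbp5 was computed, 19 relations in all. The muscle markers went furthest with Tsc22d3, with Pearson's r of 0.65 (permutation p = 0.00448, adjusted p = 0.0851) and Spearman's rho of 0.59 (permutation p = 0.0193, adjusted p = 0.366). It stayed at 0.66 without the 2 constructs farthest from the median of the muscle markers and was 0.57 for deviations from the group means. Fkbp5 was related to muscle with r = 0.12 and to the other genes with r from -0.24 to 0.46. None of the 19 passed after adjustment.

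The receptor and the enzymes that supply its ligand were looked at next, in a list of 22 genes of which 21 were tested. In each of the 9 comparisons 0 of 21 passed the adjusted threshold. In (dep)BCP+MSC against BCP+MSC, 3 of 21 were higher and 0 lower at an unadjusted p under 0.05. Of all 30564 genes tested, 6208 passed this threshold in either direction, and 2951 of these were higher. The receptor gene Nr3c1 was at 38.0 to 111.7 CPM in untreated and 38.6 to 101.4 CPM in toxin-treated constructs, with log2 fold changes of 0.05 and -0.41 in the 2 toxin groups against BCP+MSC (adjusted p = 0.957 and 0.524, edgeR). Nr3c2, the mineralocorticoid receptor, was at 0.822 to 5.80 and 1.64 to 4.77 CPM. Hsd11b1, which regenerates active glucocorticoid inside cells, was at 14.7 to 94.8 CPM in untreated and at 81.05 to 227.1 CPM in toxin-treated constructs, and 6 of the 8 were above all untreated ones. Its log2 fold changes of 1.67 and 1.55 did not pass, with adjusted p-values of 0.0514 and 0.144 from edgeR. Hsd11b2, which inactivates the hormone, was at most 1.297 CPM in untreated and 0.770 CPM in toxin-treated constructs.

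A further list held 40 other genes known to be induced by glucocorticoids, all of them tested. This list and those that follow were drawn up after the toxin difference was known, so that their counts describe these constructs and are no independent evidence of a direction. In (dep)BCP+MSC against BCP+MSC, 18 of 40 were higher and 0 lower at an adjusted p under 0.05, where 1.75% of all genes were higher and 2.17% lower, and the median log2 fold change was 1.44. Fam107a, a stress-induced partner of actin, was at 9.91 ± 6.25 against 0.756 ± 0.329 CPM (log2 fold change 3.7, adjusted p = 0.000375). Fbxo32, the ubiquitin ligase atrogin-1 that marks muscle wasting, was at 725 ± 373 against 82.7 ± 30.0 CPM (3.13, adjusted p = 0.000457), and Glul, glutamine synthetase, at 1539 ± 439 against 444 ± 108 CPM (1.79, adjusted p = 0.00122; edgeR, SD of 4 constructs). Trim63, the other muscle ligase of this kind and chosen here after its values were seen, had means of 1686 and 31.55 CPM (5.74, adjusted p = 0.00721, edgeR). Among the others that passed, also named after their values were seen, were Foxo1, Lpin1, Txnip, Pdk4 and Irs2, which act in fasting metabolism, the cell cycle inhibitor Cdkn1a and the clock gene Per1.

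In (dep)BCP+MSC+RvE1inj against BCP+MSC, 3 of the 40 were higher and 0 lower, where 0.258% of all genes were higher and 0.461% lower, and the median was 0.71. The 3 were again Fam107a (log2 fold change 3.29, adjusted p = 0.00377), Glul (1.66, adjusted p = 0.00816) and Fbxo32 (1.92, adjusted p = 0.0319), all from edgeR. Between the toxin groups 0 of 40 passed, 8 were lower and 0 higher at an unadjusted p, and the median was -0.40. Of all genes tested, 2269 (7.42%) passed unadjusted in either direction there, and 1059 of these were higher. The count for (dep)BCP+MSC ran from 8 to 20 with 1 construct left out. It was 8 without library 2, 10 without library 1, and 9 without BCP+MSC replicate 1 or without replicate 3. Calls over all genes varied in these fits too, from 467 to 1672 against 1198 with all constructs. Muscle markers were at 9.05 to 9.49 in (dep)BCP+MSC and 3.45 to 9.30 in BCP+MSC, with 0 of 24 past the adjusted threshold. The count was 17 with muscle markers as a covariate and 12 with skin markers.

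Of 22 genes that glucocorticoids are known to repress, 1 was lower and 0 higher in (dep)BCP+MSC against BCP+MSC, where 2.17% of all genes were lower. The fold changes went both ways, with 8 above 0 and 14 below it and a log2 median of -0.46. That gene was Col1a2, a chain of type I collagen, at 2223 ± 972 against 6937 ± 2073 CPM (log2 fold change -1.64, adjusted p = 0.0339, edgeR). It no longer passed in the fits without BCP+MSC replicates 1, 2 or 4 or without (dep)BCP+MSC libraries 1 or 2. Fibroblast markers fell with it, with 5 of 8 lower at the adjusted threshold and a mean log2 CPM of 7.15 to 7.72 against 8.20 to 9.13 in BCP+MSC. Their part in the collagen value was not tested.

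**Figure D3:**
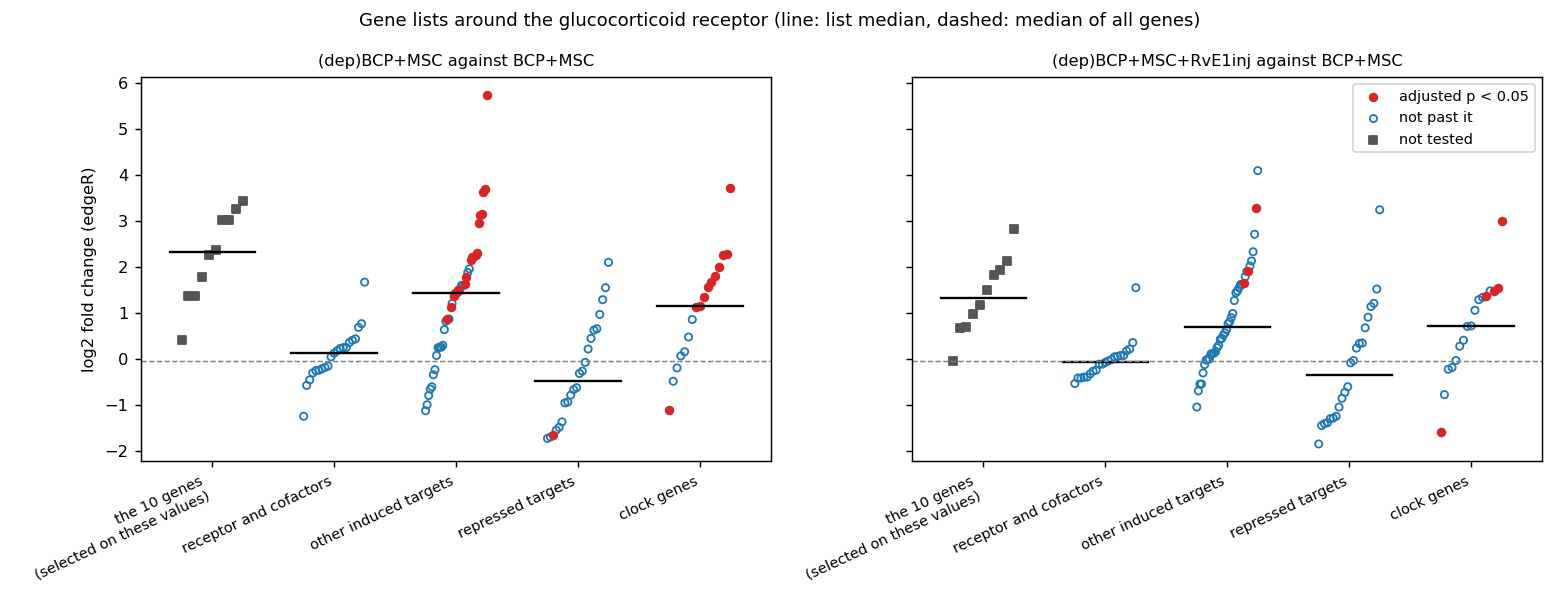
edgeR log2 fold changes of every tested gene of 5 lists in the 2 toxin groups against BCP+MSC, with a line at the list median and a dashed line at the median of all genes. In the left panel 18 of 40 other induced targets and 10 of 17 clock genes are filled as higher at an adjusted p under 0.05, and 0 of the 21 receptor and cofactor genes are. Of all genes tested, 1.75% were higher at this threshold in that comparison.

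Clock genes were examined because glucocorticoids set the phase of tissue clocks and because Per1, which is in both lists, belongs to the clock and to the receptor's targets. At an adjusted p under 0.05, 10 of 17 genes were higher and 1 lower in (dep)BCP+MSC against BCP+MSC. Of all genes tested, 1.75% were higher and 2.17% lower there. In (dep)BCP+MSC+RvE1inj 4 of 17 were higher and 1 lower, against 0.258% and 0.461% of all genes. Per2, a repressor of the clock, was at 33.6 ± 10.8 and 28.1 ± 3.69 CPM in these groups and at 9.65 ± 2.07 CPM in the 4 BCP+MSC constructs (SD). Its log2 fold changes were 1.8 and 1.54, with adjusted p-values of 0.000457 and 0.00556 from edgeR. BCP constructs, in untreated mice, had a mean of 24.2 CPM of Per2. Cry2 had 2.29 in (dep)BCP+MSC (adjusted p = 0.00206), and Tef had 1.48 in (dep)BCP+MSC+RvE1inj (adjusted p = 0.0246). Npas2, whose protein pairs with the activator Bmal1, was lower, at -1.11 and -1.58 (adjusted p = 0.024 and 0.00816). Higher Per genes and a lower Npas2 stood beside the levels of the 10 target genes, and their part in these levels was not tested.

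The genes most like the 10 over all 24 constructs were found by the mean Pearson r with them on log2 CPM, given without a test. Of the first 10 with a gene symbol, 9 are given here: Tigd2 (0.73), Fbxo32 (0.71), Galnt15 (0.71), Ktn1 and Stxbp3 (0.71), and Ggnbp2, Eif4b, Retreg1 and Zfp346 (0.70). Among them 1, Fbxo32, was in a list of targets. The means of the 10 over the 16 untreated constructs alone were -0.05 to 0.23, and over the 8 toxin-treated constructs alone 0.66 to 0.74. Retreg1, a receptor for the degradation of endoplasmic reticulum, was at 515.8 CPM in (dep)BCP+MSC, 146 CPM in (dep)BCP+MSC+RvE1inj and 29.6 CPM in BCP+MSC on average. Galnt15, an enzyme of protein glycosylation, was at 230.3, 104 and 20.8 CPM in the same order.

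**Figure D4:**
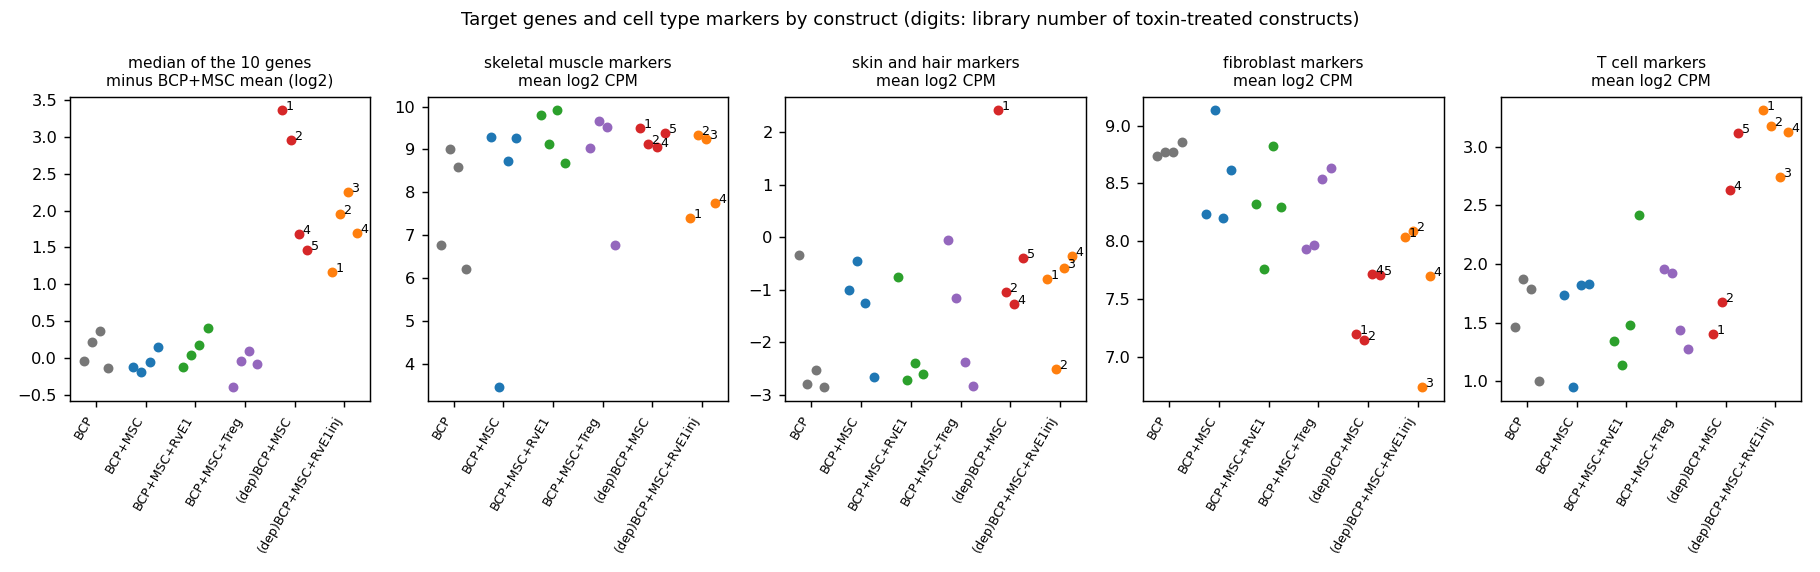
For each construct, the median of the 10 genes as the log2 difference from the BCP+MSC mean, and the mean log2 CPM of markers of skeletal muscle, skin and hair, fibroblasts and T cells, with 1 point per construct. The medians of the 8 toxin-treated constructs are 1.16 to 3.36 and those of the 16 untreated ones -0.40 to 0.40, and T cell markers are lower in (dep)BCP+MSC libraries 1 and 2 than in the other toxin-treated constructs.

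Markers of other cells differed between toxin-treated and untreated constructs as well. T cell markers had a mean log2 CPM of 1.40 to 3.31 in toxin-treated and 0.95 to 2.42 in untreated constructs, and 1 of 12 in (dep)BCP+MSC and 4 of 12 in (dep)BCP+MSC+RvE1inj were higher than in BCP+MSC at the adjusted threshold. Skin and hair markers were higher for 4 of 18 and 0 of 18. Of all genes tested, 1.75% in (dep)BCP+MSC and 0.258% in (dep)BCP+MSC+RvE1inj were higher than in BCP+MSC at this threshold. B cell markers, at -0.92 to 3.27 in toxin-treated and -0.46 to 2.33 in untreated constructs, had 0 of 5 past it in both. Macrophage markers, at 8.05 to 9.07 in toxin-treated and 8.15 to 8.97 in untreated constructs, had 0 of 14 past it in both. None of the defining markers of muscle, fibroblasts, macrophages or T cells was at 0 in all constructs of a group. Their part in the levels of the 10 genes was not tested beyond the fits with muscle and skin markers as covariates, in which the median of the 10 genes in (dep)BCP+MSC against BCP+MSC was 2.48 with each of them.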

How the data were processed

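RNA from 24 constructs was sequenced as stranded mRNA libraries, and the authors aligned the reads with HISAT2 2.0.5 to GRCm38 and deposited raw counts per gene from featureCounts 1.5.2. The 24 columns were matched to samples or groups by name, and the columns of (dep)BCP+MSC are numbered 1, 2, 4 and 5 while its samples are labelled 1 to 4, so that the last 2 columns were used as members of the group with no replicate number. Totals were 8482701 to 144417743 counts, a 17.0-fold range in depth.

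Genes with at least 10 counts in all were tested with edgeR 4.0.16 (TMM, robust quasi-likelihood test, all 24 samples in 1 model, R 4.3.3) and p-values adjusted over 30564 genes by Benjamini-Hochberg. Single genes were also tested by exact permutation of 70 arrangements (scipy 1.17.1) and correlations by 100000 permutations. DESeq2 1.42.0, other normalization and filters, pairs of groups, covariates (muscle, skin, library size, sex-linked genes), a replicate block and leaving out each construct were alternatives. On simulated data of (dep)BCP+MSC against BCP+MSC with 30560 genes, edgeR called 82 of 100 genes changed 4-fold and 91 of 100 changed 8-fold. The changed genes were drawn from those above a minimum average level, and all constructs of a group shared a mean. The split within (dep)BCP+MSC was thus not simulated, and the shares do not cover genes below that level.

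The genes and lists were chosen with earlier results of these data known. Named in the text are all 10 genes and, from the other lists, up to 3 genes in each direction with the lowest adjusted p, the receptors and ligand enzymes, Foxp3 and the 10 genes most like the members, of which some are not reported here. Marker levels are mean log2 CPM with a prior count of 2. The pairing check gave correlations of same-numbered samples from -0.66 to 0.62.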

Additional observations from a re-analysis of the deposited data

Results flagged for a closer look

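In BCP+MSC, Fkbp5 was at 64.04 CPM in replicate 4 and at 38.2 to 39.4 CPM in the other 3 constructs. On log2 CPM, the gap to the next construct was 0.942 of the group's range. In BCP, Klf15 was at 0.5036 CPM in replicate 4 and at 6.14 to 6.24 CPM in the others, a gap of 0.994 of the range on log2 CPM. Both exceed Dixon's 95% critical value for 4 samples. The 10 genes in 6 groups gave 60 such checks, of which chance marks about 1 in 20, and 2 were marked. BCP replicate 4 also had the lowest fat cell markers of its group (mean log2 CPM 2.65, against 7.07 to 7.43). BCP+MSC replicate 4 had the highest of its group (8.37, against 6.07 to 6.69). The part of fat cells in the 2 marked values was not tested.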

How the results depend on the processing

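With DESeq2, 2895, 1112 and 8 genes passed the adjusted threshold in (dep)BCP+MSC against BCP+MSC, (dep)BCP+MSC+RvE1inj against BCP+MSC and between the toxin groups, and with only the 2 groups compared 157 and 40 passed in the first 2. Skin markers as a covariate gave 685 in the first and sex-linked genes 357 in the second. Leaving out 1 construct gave 467 to 1672, 45 to 213 and 0 to 0. Of the 10 genes, those past an unadjusted p between the toxin groups were 5 with a stricter filter, 5 with DESeq2, 6 with only these groups and 2 to 6 with 1 construct left out. The range was 1 to 1 for BCP+MSC against BCP, 2 to 4 for BCP+MSC+RvE1 against BCP, 0 to 1 for BCP+MSC+Treg against BCP, 0 to 2 for BCP+MSC+RvE1 against BCP+MSC, 0 to 0 for BCP+MSC+Treg against BCP+MSC and 0 to 1 for BCP+MSC+Treg against BCP+MSC+RvE1. With muscle markers as a covariate 1 passed for BCP+MSC+RvE1 against BCP and 0 against BCP+MSC, where skin markers also gave 0 and only 2 groups gave 2. BCP+MSC+Treg against BCP+MSC+RvE1 gave 1 with only 2 groups. The median of the 10 genes was 1.95 to 2.57, 1.16 to 1.60 and -1.07 to -0.58 in the toxin comparisons with 1 construct left out. Other induced targets higher in (dep)BCP+MSC were 6 with only 2 groups and 8 to 20 with 1 construct left out, and in (dep)BCP+MSC+RvE1inj 11 with DESeq2 and 2 to 4. Repressed targets lower in (dep)BCP+MSC were 2 with the stricter filter, 4 with DESeq2, 4 with sex-linked genes, 0 with only 2 groups, muscle or skin markers, and 0 to 3 with 1 construct left out. Between the toxin groups Tsc22d3, at 0.05, was -0.02 with sex-linked genes, -0.05 and -0.01 without (dep)BCP+MSC libraries 4 and 5 and -0.11 without (dep)BCP+MSC+RvE1inj replicate 3 (range with 1 construct left out -0.11 to 0.25), and Cebpd, at -0.17, was 0.03 with muscle, 0.06 with skin and 0.20 with sex-linked genes, 0.15 without (dep)BCP+MSC library 1 and 0.09 without (dep)BCP+MSC+RvE1inj replicate 1 (range -0.46 to 0.15). The replicate block could not hold (dep)BCP+MSC libraries 4 and 5, whose replicate number the labels do not settle, so that only libraries 1 and 2 remained. It gave 2443 and 344 genes in (dep)BCP+MSC against BCP+MSC and between the toxin groups, medians of the 10 genes of 3.11 and -1.41, 6 genes past an unadjusted p between the toxin groups, of which Arrdc2 (-1.84, adjusted p = 0.00652), Ddit4 (-2.21, adjusted p = 0.0138) and Fkbp5 (-1.24, adjusted p = 0.0182) also passed in edgeR after adjustment, 4 repressed targets lower and -0.29 for Tsc22d3. Same-numbered samples did not deviate together, with a median correlation of 0.0. The cause of these changes was not tested. The 4 constructs per group and the spread within (dep)BCP+MSC limit what the comparison of the toxin groups can show.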
